A study of Mus musculus with 12 samples.

Results

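Th9 cells given EpA and fatostatin together were compared with what the separate effects of the compounds predict, gene by gene, across the 12 RNA-seq libraries of the experiment. A gene entered the comparison if its FPKM (fragments per kilobase of gene, scaled to sequencing depth) averaged 1 or more over the 12 libraries, which left 10298 of 32051 genes. Naive CD4+ T cells from the spleens of C57BL/6J mice were polarized with TGF-β at 1 ng/mL and IL-4 at 10 ng/mL under stimulation of CD3 and CD28, at first with antibodies against IL-12 and IFN-γ, and RNA was taken on day 4. All 4 groups shared this treatment. They received DMSO (the vehicle, called control here), 10 μM EpA, 5 μM fatostatin with DMSO, or EpA with fatostatin at the same doses, with 3 libraries each. A figure legend of the study calls Th9 samples with RNA-seq independent, but neither the labels nor the methods say whether the libraries of a group came from separate mice or cultures.

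The interaction is the log2 fold change of EpA in the presence of fatostatin minus that of EpA without it. The same number is the effect of fatostatin with EpA minus that without EpA. It is 0 where the effects of the compounds multiply, positive where cells with both compounds expressed more of a gene than the product of the effects, and negative where they expressed less. Values were log2(FPKM + 0.1), which understates the changes of weakly expressed genes. A gene was called where limma gave an adjusted p below 0.05.

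Th9 cells are helper T cells that secrete IL-9, and IL-4 and TGF-β together induce them. SREBP1 and SREBP2 are transcription factors held in the membrane of the endoplasmic reticulum until their escort protein SCAP carries them to the Golgi, where they are cut and released to the nucleus. There they drive the genes for fatty acid and cholesterol synthesis. Fatostatin binds SCAP and blocks this transport. EpA (endomelipeptide A) is a cyclic peptide from endophytic fungi.

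Reads were not given and were recovered from the FPKM values, with 36019739 to 43656682 per library on genes. Replicate 1 of the fatostatin group and replicate 1 of the group with both compounds stood apart from the others, with FPKM sums of 280099 and 279720, whereas the other 10 libraries lay between 284239 and 286956. All 7 T cell markers, *Cd4* among them, were above 1 FPKM, and their sum was 619 to 629 FPKM in control cells, 554 to 558 with EpA, 604 to 623 with fatostatin, and 538 to 542 with both compounds. CD8 T cell markers summed to 6.98 to 10.2 FPKM, and B cell markers to 5.2 to 8.68 FPKM. The 6 myeloid markers, each below 1 FPKM on average, summed to 0.574 to 0.785 FPKM with both compounds and to 0.286 to 0.475 FPKM in the other 9 libraries. The part of these cells in the results was not tested, and in bulk RNA fewer cells of a type and less RNA per cell cannot be told apart. The 3 NK cell markers summed to 1.38 to 1.52 FPKM in control cells, 0.753 to 0.847 with EpA, 1.19 to 1.29 with fatostatin, and 0.613 to 0.7 with both compounds, so that these groups did not overlap. Of these markers, *Ncr1* and *Klrb1c* were below 0.1 FPKM in every library, and *Klrk1* ranged from 0.547 to 1.51 FPKM. The sums were 0.591 to 0.737 FPKM for dendritic cells, 0.682 to 1.87 FPKM for mast cells or basophils, and 0.202 to 1.97 FPKM for erythroid cells.

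Most genes behaved as the product of the effects predicts, within the precision of 3 libraries per group. The median interaction was 0.01 on the log2 scale, and the 5th and 95th percentiles were -0.17 and 0.20. The interaction was called in 8 of 10298 genes (0.0777%), 7 positive (0.068%) and 1 negative (0.00971%). An unadjusted p below 0.05 was found in 889 genes (8.63%), 481 of them with a positive and 408 with a negative interaction. None of the 8 called genes reached 1.5-fold, and the largest called interaction, that of *Nr4a3*, corresponded to 1.40-fold. The 95% interval of the interaction, which is not adjusted for the number of genes, lay within 1.5-fold for 9450 genes (91.8%) and within 1.2-fold for 6493 genes (63.1%). Among the 4717 genes with at least 10 FPKM, it lay within 1.5-fold for 4669 (99.0%). For these genes, a departure of 1.5-fold lay outside the interval, whereas smaller departures were often within it.

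The effect of EpA was thus measured once without and once with fatostatin, and these measurements shared no library. Without fatostatin, the effect of EpA was called in 3598 genes (34.9%), and with fatostatin in 3881 (37.7%). The effect of fatostatin was called in 1935 genes (18.8%) without EpA and in 2200 (21.4%) with it. Across the 10298 genes, which are not independent replicates, the EpA effects of the 2 settings correlated with r = 0.72, and the fatostatin effects of the 2 settings with r = 0.61.

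**Figure D1:**
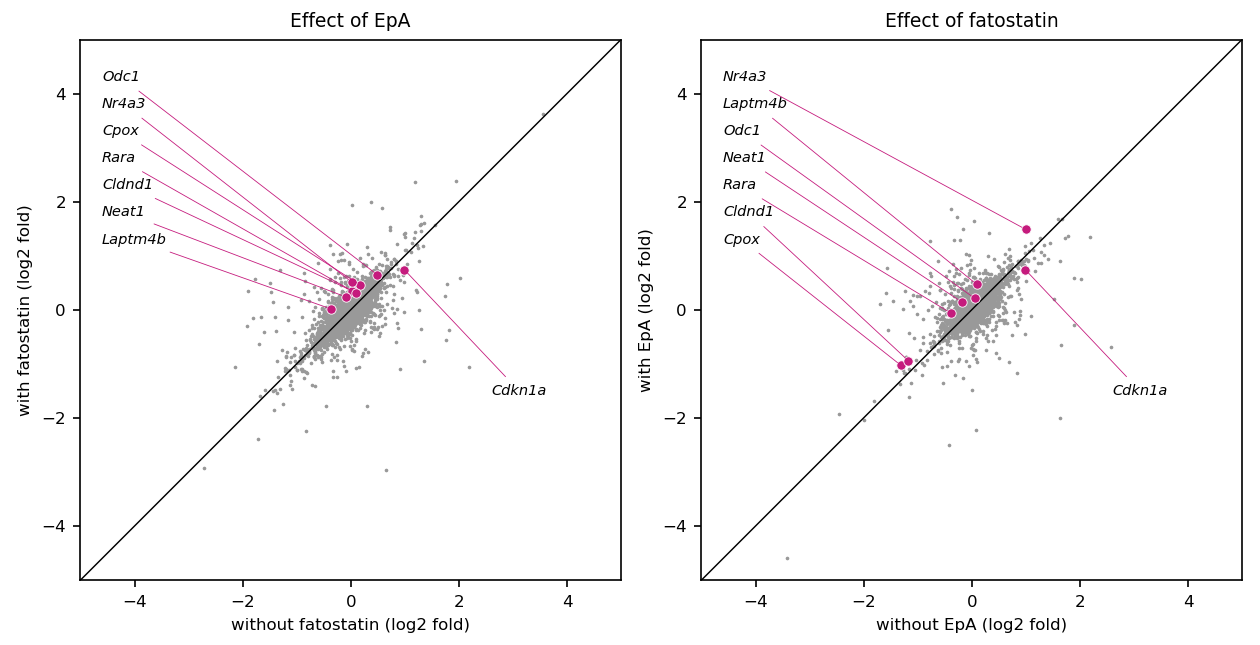
Each grey point is 1 of the 10298 genes, with the log2 fold change of EpA without (x axis) and with (y axis) fatostatin on the left, and that of fatostatin without and with EpA on the right. The black line marks equal effects. The 8 named genes, in magenta, are those with a called interaction; 7 lie above the line and *Cdkn1a* lies below it.

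*Nr4a3* (ENSMUSG00000028341, chromosome 4 of GRCm38 from 48045153 to 48086447, plus strand) encodes an orphan nuclear receptor that T cells induce soon after stimulation. It had the largest called interaction. Its expression was 2.61, 2.62, and 2.6 FPKM in the 3 control libraries and 2.63, 2.76, and 2.56 FPKM with EpA. With fatostatin, the libraries stood at 5.36, 5.58, and 5.01 FPKM, and with both compounds at 7.61, 7.79, and 7.43 FPKM. EpA and control libraries overlapped, and every library with both compounds was above every library with fatostatin alone. EpA raised *Nr4a3* 1.42-fold in the presence of fatostatin (limma adjusted p = 7.74e-06), and its fold change was 1.01 without fatostatin (adjusted p = 0.782). The product of the effects predicted 5.4 FPKM, against a mean of 7.61 ± 0.182 FPKM (SD, n = 3) measured. The interaction was 0.49 (SE 0.0686, 95% interval 0.34 to 0.64, limma adjusted p = 0.0237).

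The *Nr4a* genes are known to respond to cyclic AMP and calcium signals through promoter elements that bind CREB. The 250 bases before the RefSeq start of *Nr4a3* (GRCm38.p6, chr4:48045055-48045304, plus strand) are shown for that reason, in lower case with the core TGACGT in capitals.
*Nr4a3*: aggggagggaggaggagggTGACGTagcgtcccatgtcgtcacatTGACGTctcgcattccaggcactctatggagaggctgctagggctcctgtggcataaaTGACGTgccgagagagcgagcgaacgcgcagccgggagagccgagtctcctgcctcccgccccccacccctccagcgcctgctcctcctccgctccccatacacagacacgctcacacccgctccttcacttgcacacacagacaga
The core was searched on both strands as TGACGT and occurred 3 times, beginning 231, 205, and 147 bases before the start. Of 32851 RefSeq promoter windows of the same length, 2125 (6.47%) held it at least once. RefSeq promoter windows matched 6 of the 8 called genes.

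*Cdkn1a* (ENSMUSG00000023067, chromosome 17 from 29090976 to 29100727, plus strand) encodes p21, an inhibitor of cyclin-dependent kinases and a target of p53. It was the gene with a called negative interaction. The control libraries stood at 26.0, 26.3, and 26.3 FPKM. EpA gave 52.3, 52.4, and 52.0 FPKM, and fatostatin gave 50.9, 52.5, and 53.3 FPKM. With both compounds, the values were 85.0, 87.3, and 89.5 FPKM. The libraries with either compound alone overlapped, and all 3 libraries with both compounds were higher still. EpA raised *Cdkn1a* 1.99-fold without fatostatin (limma adjusted p = 1.49e-10) and 1.67-fold with it (adjusted p = 1.08e-09). The interaction was -0.25 (SE 0.0325, 95% interval -0.33 to -0.18, adjusted p = 0.0237). The mean with both compounds, 87.3 ± 2.23 FPKM (SD, n = 3), was below the 104.2 FPKM that the product of the effects predicts and above the 78.3 FPKM that their sum on the FPKM scale predicts. On the scale where effects add, the departure therefore had the opposite sign. Exons of *Cdkn1a* share 273 bases (7.68%) with a gene model on the other strand.

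p53 binds DNA as a tetramer at paired elements, each centered on CATG in the strongest sites. The 250 bases before the upstream of the RefSeq starts of *Cdkn1a* (GRCm38.p6, chr17:29090729-29090978, plus strand) are given with the letters CATG of the pair in capitals.
*Cdkn1a*: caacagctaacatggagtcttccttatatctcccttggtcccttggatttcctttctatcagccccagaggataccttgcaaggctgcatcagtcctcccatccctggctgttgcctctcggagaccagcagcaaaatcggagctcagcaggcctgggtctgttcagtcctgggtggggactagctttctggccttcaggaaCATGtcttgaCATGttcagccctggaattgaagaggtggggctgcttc
The pattern CATGNNNNNNCATG, which reads the same on both strands, occurred once, beginning 48 bases before the start, and 161 of the 32851 windows (0.49%) held it.

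*Cpox* and *Cldnd1* lie close to each other on chromosome 16, and both were lowered by fatostatin and had a positive interaction. *Cpox* (ENSMUSG00000022742, 58670292 to 58717636, plus strand) encodes coproporphyrinogen oxidase, an enzyme of heme synthesis. The control libraries expressed 41.8, 41.7, and 41.5 FPKM, and those with EpA 46.6, 47.5, and 47.0 FPKM. Fatostatin lowered *Cpox* to 17.5, 16.3, and 16.4 FPKM, and the libraries with both compounds expressed 22.8, 23.2, and 23.1 FPKM. None of the groups overlapped. The fold change of fatostatin was 0.403 without EpA (limma adjusted p = 3.94e-11) and 0.491 with EpA (adjusted p = 4.54e-10). The interaction was 0.29 (SE 0.0381, 95% interval 0.20 to 0.37, adjusted p = 0.0237). The product of the effects predicted 18.9 FPKM and their sum on the FPKM scale 22.1 FPKM, against a mean of 23.0 ± 0.188 FPKM (SD, n = 3).

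*Cldnd1* (ENSMUSG00000022744, 58727910 to 58734251, plus strand) encodes a membrane protein related to claudins. It stood at 149, 146, and 146 FPKM in control cells and at 159, 153, and 158 FPKM with EpA. Fatostatin lowered it to 65.8, 65.9, and 64.0 FPKM, and with both compounds it stood at 82.3, 82.8, and 79.3 FPKM. Its groups did not overlap either. The fold change of fatostatin was 0.444 without EpA and 0.52 with EpA, and the interaction was 0.23 (SE 0.0319, 95% interval 0.16 to 0.30, limma adjusted p = 0.0237). The product of the effects predicted 69.5 FPKM and their sum on the FPKM scale 74.9 FPKM, against a mean of 81.5 FPKM.

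*Gpr15* (ENSMUSG00000047293, 58717433 to 58719070, minus strand), the gene of a homing receptor of T cells and a known target of the aryl hydrocarbon receptor, lies between them. Its exons overlap those of *Cpox* by 204 bases on the other strand, and the methods do not say whether strand was used in counting, so reads in that stretch cannot be assigned. The stretch is 3.06% of the exon bases of *Cpox*. *Gpr15* had 6.1, 6.62, and 6.99 FPKM in control cells and 9.45, 9.48, and 10.2 FPKM with EpA. It had 1.06, 1.09, and 1.21 FPKM with fatostatin and 3.3, 2.31, and 1.95 FPKM with both compounds. The direction of each compound was the same as for its neighbors. Its interaction of 0.52 (95% interval 0.09 to 0.95) was not called (limma adjusted p = 0.496).

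The aryl hydrocarbon receptor binds a xenobiotic response element whose core reads GCGTG. The 250 bases before the RefSeq starts of *Cpox* (GRCm38.p6, chr16:58669958-58670207, plus strand) and *Cldnd1* (chr16:58727660-58727909, plus strand) are shown because the genes moved together, with this core in capitals.
*Cpox*: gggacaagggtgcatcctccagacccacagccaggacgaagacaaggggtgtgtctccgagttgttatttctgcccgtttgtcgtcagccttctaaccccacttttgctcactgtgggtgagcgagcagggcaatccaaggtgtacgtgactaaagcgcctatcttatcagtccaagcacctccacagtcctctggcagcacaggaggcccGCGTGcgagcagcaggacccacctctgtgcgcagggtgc
*Cldnd1*: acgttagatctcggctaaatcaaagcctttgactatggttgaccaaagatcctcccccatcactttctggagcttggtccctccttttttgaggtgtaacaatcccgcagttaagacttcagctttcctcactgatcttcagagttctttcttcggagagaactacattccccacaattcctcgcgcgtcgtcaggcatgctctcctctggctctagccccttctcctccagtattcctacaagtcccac
The core GCGTG, searched on both strands, began 39 bases before the start of *Cpox*. It was not among the letters of the *Cldnd1* window. Among the other called genes, windows of *Odc1* (3 copies), *Rara*, *Nr4a3*, and *Cdkn1a* held it too. Of the 32851 windows, 9250 (28.2%) held it, so that its presence is common.

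*Rara* (ENSMUSG00000037992, chromosome 11 from 98927818 to 98974942, plus strand) encodes the retinoic acid receptor alpha. Fatostatin lowered it from 8.47, 8.9, and 8.54 FPKM in control cells to 6.6, 6.64, and 6.48 FPKM. It stood at 8.66, 8.83, and 8.82 FPKM with EpA and at 8.25, 8.44, and 8.54 FPKM with both compounds. Libraries with both compounds thus overlapped the control libraries and lay above those with fatostatin alone. The fold change of fatostatin was 0.764 without EpA (limma adjusted p = 4.08e-06) and 0.959 with it (adjusted p = 0.195). The interaction was 0.33 (SE 0.0435, 95% interval 0.23 to 0.42, adjusted p = 0.0237).

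*Neat1* (ENSMUSG00000092274, chromosome 19 from 5824708 to 5845478, minus strand) is a long noncoding RNA that builds nuclear paraspeckles. It had 8.44, 8.38, and 8.31 FPKM in control cells, 7.64, 8.03, and 7.83 FPKM with EpA, and 7.53, 7.12, and 7.36 FPKM with fatostatin. Both compounds together gave 8.55, 8.67, and 8.82 FPKM. Each compound alone lowered *Neat1*, and the libraries with both compounds were all above the control libraries. EpA changed it 0.936-fold without fatostatin (limma adjusted p = 0.038) and 1.18-fold with it (adjusted p = 0.000124), and the interaction was 0.33 (SE 0.0455, 95% interval 0.24 to 0.43, adjusted p = 0.0237).

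*Laptm4b* (ENSMUSG00000022257, chromosome 15 from 34238028 to 34284302, plus strand) encodes a membrane protein of late endosomes and lysosomes. EpA lowered it from 16.7, 15.5, and 15.6 FPKM in control cells to 12.8, 12.1, and 12.2 FPKM. It stood at 17.8, 16.9, and 16.3 FPKM with fatostatin and at 16.9, 17.0, and 17.6 FPKM with both compounds. The groups with and without EpA overlapped in the presence of fatostatin and not in its absence. The fold change of EpA was 0.777 without fatostatin (limma adjusted p = 2.8e-05) and 1.01 with it (adjusted p = 0.803). The interaction was 0.38 (SE 0.0562, 95% interval 0.26 to 0.50, adjusted p = 0.0356).

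*Odc1* (ENSMUSG00000011179, chromosome 12 from 17544794 to 17551505, plus strand) encodes ornithine decarboxylase, the first enzyme of polyamine synthesis. It was expressed at 141, 142, and 143 FPKM in control cells and at 199, 199, and 202 FPKM with EpA. Fatostatin gave 148, 148, and 147 FPKM, and both compounds gave 227, 234, and 234 FPKM. The groups did not overlap. EpA raised *Odc1* 1.41-fold without fatostatin and 1.56-fold with it (limma adjusted p = 2.63e-09 and 3.37e-10). The interaction of 0.15 (SE 0.0233, 95% interval 0.10 to 0.20, adjusted p = 0.0435) was the smallest of the 8.

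The 8 calls depended on which libraries were fitted. Leaving out any of the 3 control or the 3 EpA libraries, replicate 2 or 3 of fatostatin, or replicate 2 of both compounds left 0 calls. Without replicate 1 of fatostatin there were 4 calls, and without replicate 1 or replicate 3 of both compounds 6 and 2. With replicate 1 of the fatostatin group and replicate 1 of the group with both compounds left out together, 7 genes were called, 5 of them among the 8. In these and the other alternative fits on the log scale, each of the 8 genes kept the direction of its interaction in every fit that included it, and the size stayed between 0.43 and 0.52 for *Nr4a3*, for example, and between 0.27 and 0.33 for *Cpox*.

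**Figure D2:**
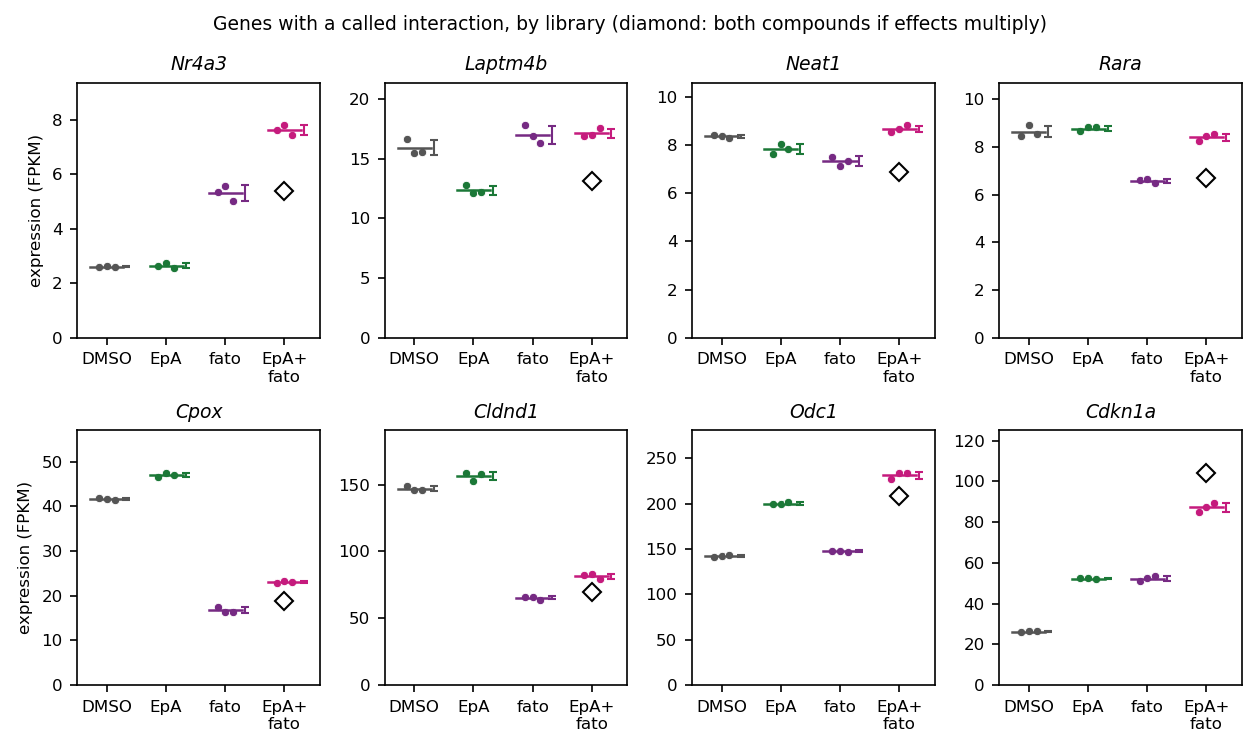
Each panel shows 1 of the 8 genes with a called interaction, with FPKM per library (points), the mean (line), and the SD over 3 libraries (bar) for control (DMSO), EpA, fatostatin (fato), and both compounds. The open diamond is the FPKM that the product of the separate effects predicts. The libraries with both compounds lie above the diamond in 7 panels and below it for *Cdkn1a*.

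Genes with a large average effect of EpA, taken over both settings of fatostatin, were examined next, because this average is independent of the interaction in a balanced design. An average effect with an adjusted p below 0.05 and at least 1.5-fold was found in 222 genes (2.16%), 87 higher and 135 lower. All 222 had the same direction with and without fatostatin, which the choice by a large average of the 2 settings largely fixes. The interaction was called in 1 of the 222, *Cdkn1a*, against 0.0777% of all tested genes. Its interval lay within 1.5-fold in 138 (62.2%), against 91.8% of all tested genes. The effect of EpA was larger in size with fatostatin in 133 of the 222 and smaller in 89. Of those with an unadjusted interaction p below 0.05, 32 were larger and 12 smaller. Over all 10298 tested genes, 889 (8.63%) had such a p. The median change in size was 0.04 on the log2 scale, against 0.0059 over all tested genes. Its SD was 0.0169 over the 3 sets of 4 libraries with the same replicate number. Replicate numbers do not pair the libraries, so these sets are arbitrary, and the genes were chosen with all libraries. The SD therefore does not measure how far the median lies from 0.

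An average effect of fatostatin past the same thresholds was found in 131 genes (1.27%), 86 higher and 45 lower. All 131 had the same direction with and without EpA, which the choice largely fixes here too. The interaction was called in 4, against 0.0777% of all tested genes. Its interval lay within 1.5-fold in 97 (74.1%), against 91.8% of all tested genes. The effect of fatostatin was smaller in size with EpA in 76 genes and larger in 55. Among those with an unadjusted interaction p below 0.05, 23 were smaller and 6 larger, where 8.63% of all tested genes had such a p. The median change in size was -0.04 on the log2 scale, against 0.0045 over all tested genes. Its SD over the same arbitrary 3 sets of libraries was 0.0134, with the same limit. EpA effects thus leaned toward a larger size with fatostatin, and fatostatin effects toward a smaller size with EpA. These are counts over genes of the same 12 libraries and carry no test.

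**Figure D3:**
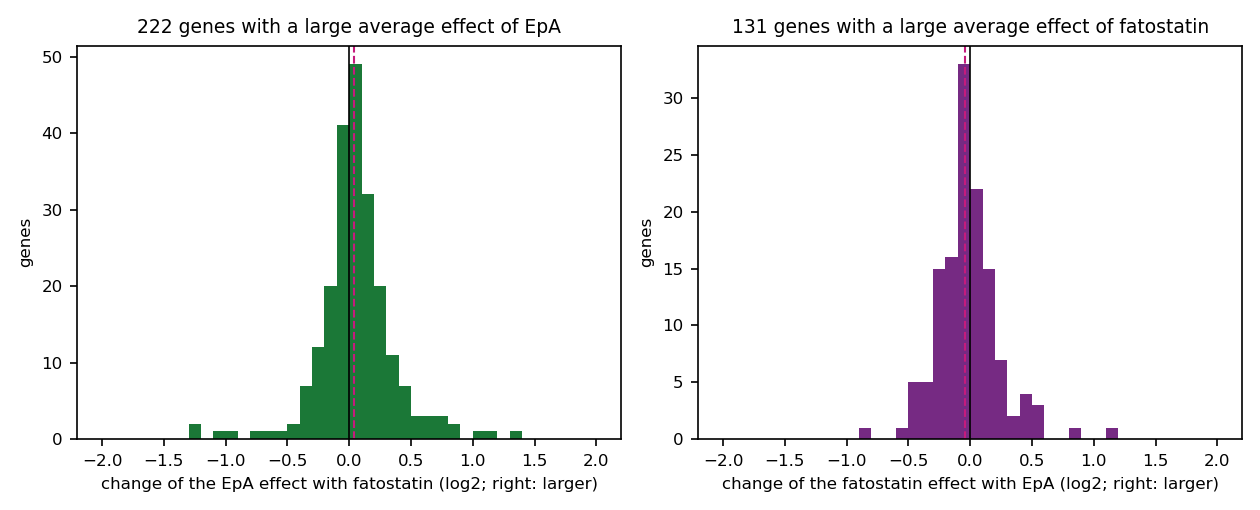
The bars count genes by how far the size of the EpA effect changed with fatostatin (left, 222 genes) and how far that of the fatostatin effect changed with EpA (right, 131 genes), on the log2 scale. Values right of the solid line at 0 are larger effects in the presence of the other compound, and the dashed line is the median, 0.04 on the left and -0.04 on the right.

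*Il9*, the cytokine gene that defines these cells, had the largest average increase with EpA. It stood at 51, 57.7, and 55.1 FPKM in control cells and at 620, 652, and 648 FPKM with EpA. With fatostatin it stood at 67.9, 60.7, and 70.8 FPKM, and with both compounds at 805, 802, and 855 FPKM. Every group lay apart from the others. EpA raised *Il9* 11.7-fold without and 12.3-fold with fatostatin, and fatostatin raised it 1.22-fold without and 1.28-fold with EpA. The interaction was 0.08 (SE 0.0786, 95% interval -0.10 to 0.25, limma adjusted p = 0.856). The product of the effects predicted 779 FPKM, and the mean with both compounds was 821 ± 29.7 FPKM (SD, n = 3).

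*Il21*, the gene of a helper T cell cytokine, had 1.15, 1.3, and 1.36 FPKM in control cells and 3.48, 3.04, and 3.33 FPKM with EpA, then 1.24, 1.03, and 1.18 FPKM with fatostatin and 4.1, 4.11, and 3.87 FPKM with both compounds. The group with both compounds was the highest, and fatostatin alone overlapped the control. Its interaction was 0.42 (95% interval 0.15 to 0.69, limma adjusted p = 0.338). *Il1rn*, which encodes the antagonist of the IL-1 receptor, was raised 3.88-fold by EpA without and 5.23-fold with fatostatin, with an interaction of 0.43 (95% interval 0.14 to 0.72, adjusted p = 0.363). *Cldn4*, a claudin of tight junctions, was raised 2.94-fold and 2.98-fold, with an interaction of 0.02 (95% interval -0.44 to 0.48). The fifth gene was *Traj61*, a joining segment of the T cell receptor alpha locus with 0 to 7 reads in the libraries with fatostatin and too wide an interval (-1.74 to 4.09) to read.

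Among the genes that EpA lowered most, *Il17rb*, a receptor chain for IL-25, fell to 0.335-fold without and 0.355-fold with fatostatin (interaction 0.09, 95% interval -0.10 to 0.27). *Frmpd1* fell to 0.313-fold and 0.33-fold (interaction 0.07). *Car2*, the gene of carbonic anhydrase 2, fell to 0.372-fold and 0.277-fold, with an interaction of -0.42 (95% interval -0.72 to -0.12, limma adjusted p = 0.404). Fatostatin raised *Car2* 1.59-fold without EpA, and its fold change with EpA was 1.18 (adjusted p = 0.099). *Gm8714*, a processed pseudogene whose reads may come from its parent gene, had an interaction of -0.69 (adjusted p = 0.331). The joining segment *Traj22* rested on 0 to 6 reads in the libraries with both compounds.

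Among the genes that fatostatin raised most, the interaction was called in none. *Zfp385a*, a zinc finger gene linked to p53, stood at 1.51, 1.6, and 1.84 FPKM in control cells, 2.37, 2.01, and 1.96 FPKM with EpA, 5.52, 5.4, and 5.47 FPKM with fatostatin, and 6.97, 7.2, and 6.61 FPKM with both. Fatostatin raised it 3.19-fold without and 3.18-fold with EpA, and the interaction was -0.0031 (95% interval -0.25 to 0.25). *Tnfsf4*, the gene of OX40 ligand, rose 2.73-fold without and 2.36-fold with EpA, with an interaction of -0.21 (95% interval -0.38 to -0.04, limma adjusted p = 0.484). *Ak1*, an adenylate kinase, rose 3.44-fold and 2.57-fold (interaction -0.42, 95% interval -0.90 to 0.06). *Art2b*, an ADP-ribosyltransferase of T cells, rose 3.32-fold and 2.52-fold (interaction -0.40, 95% interval -1.05 to 0.26). *Mir8105* had at most 10 reads in a library with both compounds.

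*Cyp1a1*, the classic target of the aryl hydrocarbon receptor, was the gene that fatostatin lowered most. It had 2.95, 2.63, and 2.68 FPKM in control cells and 2.81, 2.84, and 3.18 FPKM with EpA. Fatostatin left 0.17, 0.126, and 0.213 FPKM, and both compounds left 0.0507, 0, and 0.035 FPKM, which rest on 0 to 6 reads. The interaction of -1.17 (95% interval -1.74 to -0.60, limma adjusted p = 0.227) depends on the pseudocount at this level, and was -0.25 at a pseudocount of 1 FPKM and -2.64 at 0.01 FPKM. With voom on the recovered reads it was -3.11 and was called (adjusted p = 0.025), whereas the adjusted p was at least 0.158 in every other alternative fit tested. *Lgals3*, the gene of galectin-3, fell to 0.285-fold without and 0.31-fold with EpA (interaction 0.12, 95% interval -0.13 to 0.37), and *Car8* to 0.252-fold and 0.242-fold (interaction -0.05, 95% interval -0.56 to 0.45). *Ifitm1*, an interferon-induced membrane protein, fell to 0.448-fold and 0.326-fold (interaction -0.46, 95% interval -1.12 to 0.20).

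Both average effects passed 1.5-fold in 22 genes, and these show how the directions combined. The compounds raised 6 of them alike and lowered 6 alike, 6 were raised by EpA and lowered by fatostatin, and 4 the other way. The interaction was called in 1 (*Cdkn1a*) and lay within 1.5-fold in 14, and the 22 values ran from -0.56 to 0.52. Among genes that both compounds raised, *Ccl22*, a chemokine of type 2 responses, went from 2.19 FPKM in control cells to 5.68 with EpA, 3.79 with fatostatin, and 8.70 with both (group means, interaction -0.15, 95% interval -0.40 to 0.11). *Plk2*, a kinase gene that p53 induces, went from 10.6 FPKM to 18.3, 21.9, and 34.6 FPKM (interaction -0.13). *Ulbp1*, *Lrp11*, and *Ccl17* had interactions of -0.06, -0.25, and 0.29, none called. On the FPKM scale, where effects add, the departures of *Ccl22*, *Plk2*, *Ulbp1*, and *Lrp11* had the opposite sign, like that of *Cdkn1a*.

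Of the genes that both compounds lowered, *Itgae*, which encodes CD103, an integrin that TGF-β induces, went from 20, 20.1, and 20 FPKM to 8.48, 8.62, and 8.5 FPKM with EpA, 12.1, 12.8, and 12.1 FPKM with fatostatin, and 5.55, 5.73, and 5.53 FPKM with both. The groups did not overlap. The product of the effects predicted 5.26 FPKM, against a measured mean of 5.60 ± 0.107 FPKM (SD, n = 3) and an interaction of 0.10 (95% interval 0.0034 to 0.19, limma adjusted p = 0.552), whereas their sum on the FPKM scale predicted 0.864 FPKM. *Myo6*, a myosin gene, fell from 9.35 FPKM to 4.08, 5.26, and 2.35 FPKM (interaction 0.05, 95% interval -0.08 to 0.18). There the sum on the FPKM scale would have been below 0. *Fgl2*, *Lgals3*, *Trgc1*, and *Trgc3* completed this set, with interactions of -0.12, 0.12, -0.33, and -0.56, none called. The departures of *Fgl2* and *Trgc1* had the opposite sign on the FPKM scale.

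The compounds had opposed effects on 10 of the 22 genes. *Trat1*, an adaptor of the T cell receptor, was lowered by EpA to 0.369-fold without and 0.354-fold with fatostatin and raised by fatostatin 2-fold without and 1.92-fold with EpA (interaction -0.06, 95% interval -0.21 to 0.09). *Pdpn*, the gene of podoplanin, had 16.9, 17.6, and 16.1 FPKM in control cells, 29.9, 31.8, and 30.2 FPKM with EpA, 7.11, 7.08, and 7.24 FPKM with fatostatin, and 16.2, 17.5, and 16.4 FPKM with both compounds. The libraries with both compounds overlapped the control. Its interaction of 0.35 (SE 0.0561, 95% interval 0.23 to 0.47) missed the threshold (limma adjusted p = 0.0523). It was called at a pseudocount of 0.01, at a minimum of 5 FPKM, with TPM, with robust empirical Bayes, and with the replicate number as a block. *Asb2*, *Ermn*, *Cyp2s1*, *Nkain1*, and *Gpr15* were raised by EpA and lowered by fatostatin like *Pdpn*, with interactions of -0.27, 0.06, 0.06, -0.02, and 0.52. *Ipcef1*, *St8sia6*, and *Art2b* were lowered by EpA and raised by fatostatin like *Trat1*, with 0.41, 0.22, and -0.40. None of these 8 was called. On the FPKM scale, where effects add, the departures of *Pdpn*, *Gpr15*, *Ermn*, *Cyp2s1*, *Ipcef1*, and *St8sia6* had the opposite sign.

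Of the 13 Th9 and type 2 cytokine genes, 7 were expressed at 1 FPKM or more, and all 7 had a higher average level with EpA (adjusted p below 0.05), against 26.6% of all tested genes that rose and 23.8% that fell. The interaction was positive in 7 of 7, had an unadjusted p below 0.05 in 4 (against 481 positive ones among all 10298 tested genes), and was called in 0. With 8 calls among all 10298 genes (0.0777%), 0 calls is usual for a list, here and below. The median was 0.15, against 0.01 over all tested genes, of which 5528 of 10298 had a positive value. *Il4* had 8.66, 9.12, and 8.34 FPKM in control cells and 8.52, 8.98, and 8.83 FPKM with EpA. It had 7.57, 6.97, and 6.9 FPKM with fatostatin and 8.4, 9.35, and 9.55 FPKM with both compounds. Only the fatostatin libraries lay apart. The interaction was 0.33 (95% interval 0.16 to 0.50, limma adjusted p = 0.257). *Il10*, an anti-inflammatory cytokine gene, was lowered by fatostatin from a mean of 110.1 to 53.7 FPKM and stood at 137 FPKM with EpA and 71.2 FPKM with both (interaction 0.10, adjusted p = 0.426). *Il13* had 8.82, 16.0, 11.1, and 20.8 FPKM in control, EpA, fatostatin, and both (interaction 0.06, 95% interval -0.15 to 0.26). *Il24* had an interaction of 0.15 (adjusted p = 0.227).

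In the TNF superfamily, 24 of 27 ligands and receptors were tested, 0 were called, and the median interaction was 0.03. *Lta*, the gene of lymphotoxin alpha, had 16.4, 16.7, and 15.6 FPKM in control cells, 41.4, 42.2, and 41.8 FPKM with EpA, 16.4, 18.3, and 18.3 FPKM with fatostatin, and 50.6, 55.3, and 56.0 FPKM with both. The group with both compounds was the highest. The interaction was 0.25 (95% interval 0.10 to 0.40, limma adjusted p = 0.331). *Tnf* and *Fasl*, the gene of the ligand of the death receptor Fas, had interactions of 0.09 (95% interval -0.20 to 0.39) and 0.06 (95% interval -0.18 to 0.30). Of 16 genes for granzymes, perforin, and interferon gamma, 9 were tested and 1 had a positive interaction, with a median of -0.03 and 0 calls. *Gzmb*, the gene of granzyme B, fell from a mean of 147 FPKM to 117 with EpA, 140 with fatostatin, and 104 with both (interaction -0.09, 95% interval -0.15 to -0.03, adjusted p = 0.387). *Ifng*, the gene of interferon gamma, had group means of 2.20, 1.76, 2.46, and 1.3 FPKM and an interaction of -0.55 (95% interval -0.93 to -0.17, adjusted p = 0.387). The sum of the NK cell markers, nearly all of it *Klrk1*, was lower with EpA as well (0.753 to 0.847 FPKM against 1.38 to 1.52 FPKM in control cells). Whether NK cells had a part in these values was not tested.

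Among 21 transcription factors that promote Th9 cells, 19 were tested, with a median of 0.05 and 0 calls. *Irf4* had 155, 158, and 155 FPKM in control cells, 145, 143, and 143 FPKM with EpA, 168, 158, and 161 FPKM with fatostatin, and 168, 161, and 163 FPKM with both. EpA lowered it in the absence of fatostatin (0.918-fold, limma adjusted p = 0.00134) and had a fold change of 1.01 in its presence (adjusted p = 0.621). The interaction of 0.14 (95% interval 0.07 to 0.21) was not called (adjusted p = 0.255). *Batf* had -0.02 (95% interval -0.11 to 0.06). Of 21 checkpoint and costimulatory receptors, 19 were tested, with a median of 0.07 and 0 calls. *Pdcd1*, the gene of PD-1, had 0.01 (95% interval -0.13 to 0.16), and *Cd69*, an early activation marker, 0.20 (95% interval -0.14 to 0.53). *Ctla4* reached 0.15 at an adjusted p of 0.0687, and *Cd96* had -0.28 (adjusted p = 0.227).

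The SREBP genes and their targets, the pathway that fatostatin acts on, showed small interactions. *Srebf1*, the gene of SREBP1, had 37.7, 36.4, and 38.0 FPKM in control cells, 31.4, 30.9, and 30.4 FPKM with EpA, 33.9, 35.0, and 33.8 FPKM with fatostatin, and 29.1, 28.7, and 29.4 FPKM with both. The groups did not overlap, and the lowest values were those with both compounds. EpA lowered *Srebf1* to 0.828-fold without and 0.849-fold with fatostatin (interaction 0.04, 95% interval -0.04 to 0.11, limma adjusted p = 0.839). *Srebf2* had an interaction of 0.10 (95% interval 0.04 to 0.16, adjusted p = 0.331). Of 27 genes of fatty acid synthesis and SREBP1 targets, 20 were tested, all 20 with an interval within 1.5-fold, with a median of 0.03, 16 positive (against 5528 of all 10298 tested genes), 3 positive at an unadjusted p below 0.05 (against 481), and 0 called.

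*Scd1*, a stearoyl-CoA desaturase gene, was lowered by fatostatin to 0.707-fold without and 0.757-fold with EpA (interaction 0.10, 95% interval 0.04 to 0.16, adjusted p = 0.331). *Fasn*, the gene of fatty acid synthase, had 0.07 (95% interval 0.01 to 0.12), *Scd2* 0.01 (95% interval -0.06 to 0.08), *Fads1* 0.02 (95% interval -0.06 to 0.11), and *Fads2* 0.05 (95% interval -0.10 to 0.21). In cholesterol synthesis and uptake, 27 of 30 genes were tested, all 27 with an interval within 1.5-fold, with a median of 0.00013 and 0 calls. On average over EpA, fatostatin lowered 13 and raised 4 of these 27 (background 15.5% and 16.8%). *Sqle*, the gene of squalene epoxidase, had an interaction of -0.07 (95% interval -0.15 to 0.01), and *Insig1*, which retains SCAP, -0.0091 (95% interval -0.10 to 0.08). The 9 tested genes of cholesterol efflux and LXR targets had a median of 0.02, with *Abca1*, a sterol exporter, at 0.11 (95% interval -0.07 to 0.29).

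**Figure D4:**
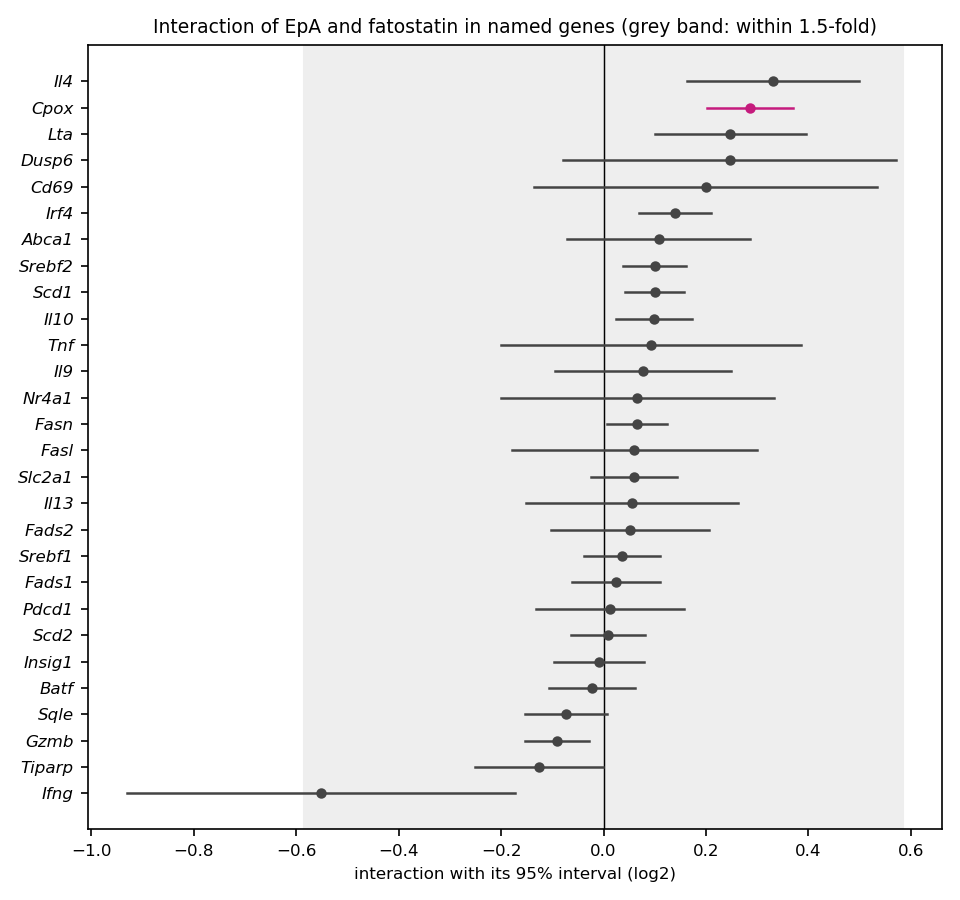
Points give the interaction of 28 named genes on the log2 scale and lines its 95% interval from limma. The grey band marks 1.5-fold in either direction. *Cpox*, in magenta, is the called gene among them, and the interval of *Ifng* reaches out of the band.

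Of 25 listed p53 targets, 22 were tested. Fatostatin raised 19 of the 22 on average over EpA and lowered 0, against 16.8% of all tested genes raised and 15.5% lowered. EpA raised 14 and lowered 2, against 26.6% and 23.8%. The median interaction was -0.06, with 8 positive, 1 called (*Cdkn1a*), and an unadjusted p below 0.05 in 6 genes, all of them negative, against 408 negative among all 10298 tested genes. Besides *Cdkn1a* and *Plk2*, these were *Phlda3*, a repressor of AKT (-0.33, 95% interval -0.51 to -0.14), *Ccng1*, the gene of cyclin G1 (-0.12, 95% interval -0.17 to -0.06), *Sesn2*, a stress sensor (-0.16, 95% interval -0.28 to -0.05), and *Zmat3* (-0.13, 95% interval -0.26 to -0.01). *Mdm2*, the ligase that degrades p53, had 0.0048 (95% interval -0.08 to 0.09). The departures of *Cdkn1a* and *Plk2* had the opposite sign on the FPKM scale, where effects add.

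Negative medians were also found for cell division genes, whereas 5528 of all 10298 tested genes had a positive interaction. Of 45 DNA replication genes, all tested, 6 had a positive interaction and 0 were called, with a median of -0.05. At an unadjusted p below 0.05, 10 were negative and 1 positive, against 408 and 481 of all 10298 tested genes. *E2f8*, an E2F factor of S phase, had -0.20 (limma adjusted p = 0.227), *Rfc3*, a clamp loader subunit, -0.20, and *Orc1*, an origin recognition subunit, 0.15. Of 47 tested mitosis genes, 4 were negative at an unadjusted p below 0.05, against 408 of all 10298 tested genes. Among the 47, 11 were positive and 0 were called, with a median of -0.04. Their intervals all lay within 1.5-fold. Fatostatin lowered 24 of 45 and 33 of 47 genes of these lists on average and raised none, against 15.5% of all tested genes lowered and 16.8% raised. EpA lowered 18 and 34, against 23.8%.

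The NR4A and EGR early response factors had 8 tested members and a median of 0.07, with *Nr4a3* called and *Nr4a1* at 0.07 (95% interval -0.20 to 0.33). *Egr1* and *Prf1*, the gene of perforin, fell below 1 FPKM on average and were not tested. ERK feedback genes (12 tested) had a median of 0.12 with 0 calls, with *Dusp6*, an ERK phosphatase, at 0.25 (95% interval -0.08 to 0.57) and *Dusp1* at 0.42 (limma adjusted p = 0.356). The AP-1 family (16 tested) had a median of 0.02 and 0 calls. *Fosl2* stood at 0.28 (adjusted p = 0.227). In the aryl hydrocarbon receptor pathway (9 tested), the median was 0.0078 and 0 were called. Fatostatin lowered 6 of the 9 on average and raised 0, against 15.5% and 16.8% of all tested genes. *Tiparp*, a feedback target of the receptor, had an interaction of -0.13 (95% interval -0.25 to -0.0017, adjusted p = 0.567). Heme synthesis and breakdown (14 tested) had a median of 0.05, with *Cpox* called.

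The other lists had 0 calls each, against 0.0777% of all tested genes, a share at which 0 is usual for lists of this size. The medians were 0.06 for 28 ATF4 stress and amino acid genes, 0.03 for 23 glycolysis genes, 0.03 for 16 hypoxia genes, 0.02 for 21 genes of the NRF2 antioxidant response, and 0.02 for 26 genes of the unfolded protein response. *Slc2a1*, the glucose transporter GLUT1, had 0.06 (95% interval -0.02 to 0.14), and *Hk2*, the first enzyme of glycolysis, 0.18 (limma adjusted p = 0.293). List medians were -0.0032 for 48 ribosome biogenesis genes, of which EpA raised 47 on average, against 26.6% of all tested genes, -0.02 for 77 mitochondrial and -0.02 for 87 cytosolic ribosomal protein genes, and 0.01 for 95 respiratory chain genes. They were -0.03 for 23 interferon-stimulated genes, 0.01 for 22 quiescence and memory genes, 0.03 for 13 chemokines and their receptors, and 0.01 for 41 lysosome and autophagy genes. *Irgm1*, an interferon-induced GTPase, had an interaction of -0.18 (limma adjusted p = 0.227).

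**Figure D5:**
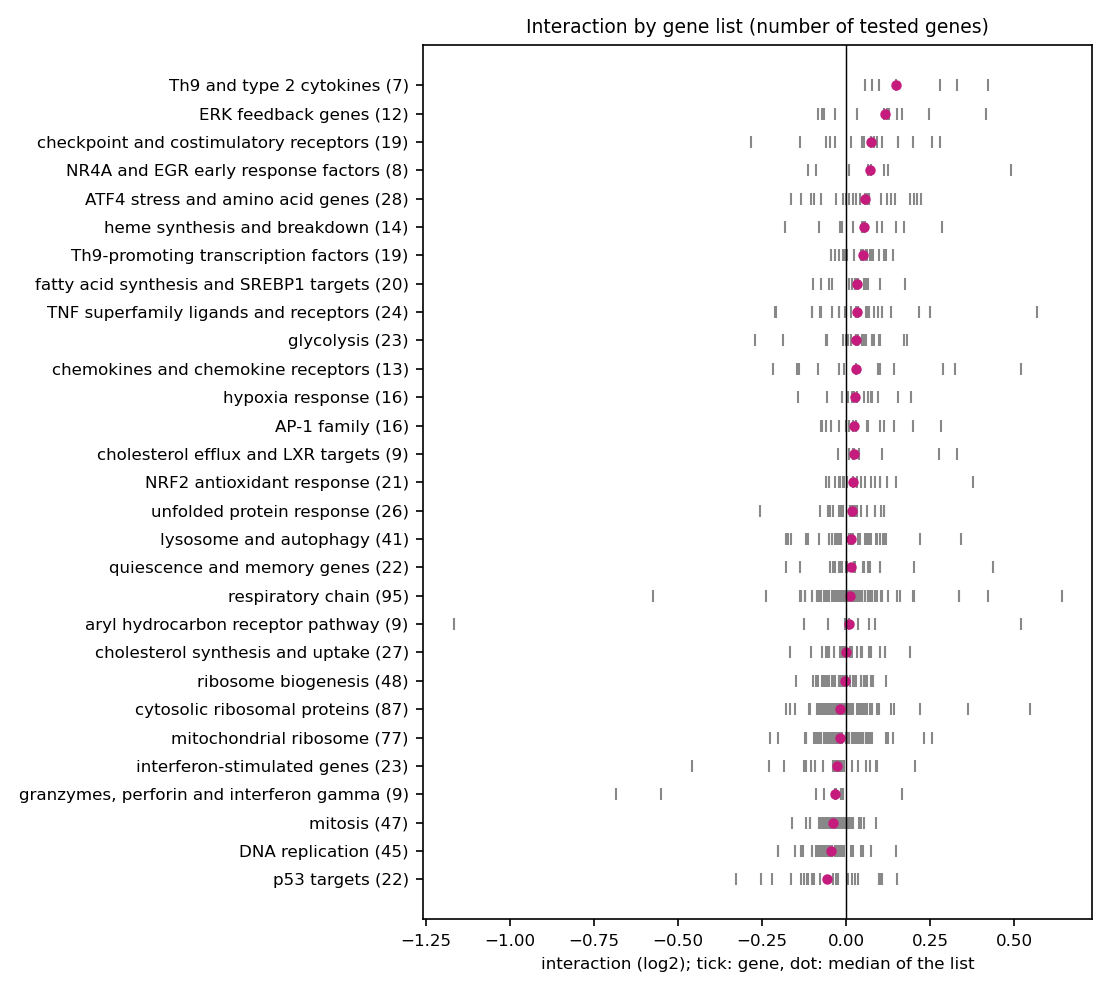
Each row is 1 of 29 gene lists with its number of tested genes. Ticks are the interactions of single genes on the log2 scale and dots the list medians, which run from -0.06 for the p53 targets to 0.15 for the Th9 and type 2 cytokines.

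Interactions of 1.5-fold or more in size were found in 143 genes, and none of them was called. Of the 143, 124 were not protein coding, whereas 9578 of the 10298 tested genes were. The median of their mean expression was 1.65 FPKM, against 8.74 FPKM over all tested genes, the median SE was 0.576, against 0.0691, and 16 had a mean of 5 FPKM or more. An unadjusted p below 0.05 was reached by 47. The interval lay wholly beyond 1.5-fold in 4 genes, named here after their values were seen. These were *Cyp1a1*, the short noncoding RNA genes *Gm25128* and *Gm23341* with at most 7 and 5 reads in the libraries with both compounds, and *Gm7336*, a processed pseudogene with 857 to 1189 reads in those libraries and 12.7, 38.1, and 29.9 FPKM in the controls. In the main fit, on the log2(FPKM + 0.1) scale, none of the 4 had a limma adjusted p below 0.227.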

How the data were processed

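RNA-seq was available for 12 libraries, 3 in each of 4 groups, which were taken from the labels. Per the labels and the study's methods, Trim Galore removed adapters, HISAT2 served for alignment to GRCm38, featureCounts gave reads per gene, and the authors deposited FPKM, relative to the length of a gene and the depth of the library. The annotation release and the use of strand are not given in the sources used here. The table has 32352 lines for 32051 genes, since 301 lines repeat a gene with the same values, and 0 columns belong to no sample.

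With exon lengths from GENCODE M21, which covers 32003 of the genes, 98.2% to 98.3% of the values above 0 came out as whole reads (tolerance 0.01 reads). The depth gives 0.0225 to 0.0273 FPKM per read on a gene of 1 kb. Replicates of a group differed by more than sampling noise and were all kept. Same-numbered libraries did not deviate together (r from -0.09 to 0.11 over 18 pairs), so replicate numbers were not used as a block.

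Genes averaging 1 FPKM or more were fitted as log2(FPKM + 0.1) in R 4.3.3 with limma 3.58.1, with 4 group means and an intensity trend. Contrasts were the interaction, the average effect of each compound, and its effects with and without the other. Two-sided p-values received Benjamini-Hochberg correction across 10298 genes. They measure the spread between libraries, which may be technical. A two-sided exact permutation test of 3 against 3 cannot give a p below 0.1. The method was tested on simulated data.

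Named genes were the called genes, the 5 with the largest average effects in each direction, 32 genes that the study discusses (some not reported here), and the 22 with both effects past 1.5-fold. List members outside this rule were named after their values were seen. The comparison, the genes, and the 29 lists were chosen with earlier results of these data known, and lists carry no test. Alternatives changed the pseudocount, minimum, scaling, limma settings, and libraries.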

Additional observations from a re-analysis of the deposited data

Results flagged for a closer look

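The effect of EpA differed with and without fatostatin in 8 genes, by the limma test of the difference itself. The interactions on the log2 scale were 0.49 for *Nr4a3*, 0.38 for *Laptm4b*, 0.33 for *Neat1*, 0.33 for *Rara*, 0.29 for *Cpox*, 0.23 for *Cldnd1*, 0.15 for *Odc1*, and -0.25 for *Cdkn1a*. With 10298 genes tested, the 8 calls are 0.0777%. Dixon's test for a single outlying value was not applied, since each group has 3 libraries.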

How the results depend on the processing

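The number of called interactions, 8 (7 positive, 1 negative), moved with the setting. It was 5 (3 and 2) without a filter on low values, 3 (3 and 0) without an intensity trend, 21 (15 and 6) with voom on the recovered reads, and 14 at an adjusted p below 0.1. With 8 to 11 calls, 2 were negative at a pseudocount of 0.01, a minimum of 5 FPKM, TPM, median-ratio scaling, and the replicate block, and also 2 of 7 without replicate 1 of both fatostatin-treated groups, an alternative added after the data were seen. Leaving out 1 library gave 0 to 6 calls, 0 to 5 positive and 0 to 1 negative, with fewer samples in each fit. Calls past 1.5-fold, 0 otherwise, were 1 without a filter, 1 with the replicate block, and 2 with voom. The replicate block kept 6 of the 8 genes in its 8 calls. The numbers do not pair the samples, since 4 of 12 libraries were closest to their own number. On the FPKM scale, where effects add, the departure of *Cdkn1a* turned to 0.16. It also turned in 17 of the other named genes, none of them called, among them *Pdpn* (-0.33), *Gpr15* (-0.75), *Il10* (-0.17), and *Ipcef1* (-0.24), and that of *Cldnd1* was 0.12 and that of *Cpox* 0.06.

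Large average effects of EpA and fatostatin numbered 126 and 73 at a pseudocount of 1, 487 and 289 at a minimum of 0.1 FPKM, 79 and 57 at 5 FPKM, and 510 and 293 without a filter. The median change in size of these effects kept its direction in every setting. For EpA it was 0.0654 at a pseudocount of 1, 0.0292 to 0.0685 with 1 library left out, and 0.0730 without both replicates named above. For fatostatin it was -0.0601 at a pseudocount of 1, -0.0061 at a minimum of 0.1 FPKM, -0.0638 at 5 FPKM, and -0.0175 without a filter. The causes were not tested. Depth limits very short noncoding genes such as *Traj61*, which rest on few reads near 1 FPKM.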
